A study of Mus musculus with 12 samples.

Results

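The mouse prostate secretory and apical genes described here are Pbsn, Msmb, Tgm4, Azgp1, Apof, Rnase1, Mme, Dpp4 and Gdpd1, which are 9 of the 22180 genes with a probe set of a single symbol on the arrays. They were chosen as secretory or apical prostate genes with such a probe set, with their levels over the study's groups already known, and the measured values they were selected on were the gate levels of these arrays. Their levels in the 3 sorting gates are therefore given as a description, and nothing is read from how many of them pass a comparison of gates. Each of the 9 has 1 such probe set, and all 9 passed the filter on dim probe sets. The first named 6 encode secreted proteins, while Mme and Dpp4 are membrane peptidases and Gdpd1 is an intracellular membrane enzyme.

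The 12 arrays measured RNA of epithelial cells sorted from the prostates of wild-type male mice that were hormone-naïve, and the labels give no age. All cells were negative for the lineage markers CD45, CD31 and Ter119. They were sorted by the surface proteins Sca1 and CD49f into a luminal gate (low for both), a Sca1-high gate (high Sca1, CD49f-positive) and a basal gate (intermediate Sca1, CD49f-positive), and each gate was divided into LY6D+ and LY6D- cells. This gave the 6 groups luminal LY6D+, luminal LY6D-, Sca1-high LY6D+, Sca1-high LY6D-, basal LY6D+ and basal LY6D-, with 2 mice each. Luminal libraries came from mice 4 and 5, Sca1-high libraries from mice 1 and 5, and basal libraries from mice 3 and 5. Below, a pair of values of 1 group gives mouse 4, 1 or 3 first and mouse 5 second. Values are log2 signals, so a difference of 1 is a doubling of the signal. Means are given ± SD over libraries and differences ± SE. The 4 libraries of a gate come from 2 mice and are not independent, and the number of arrays limits the precision.

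Luminal cells of the prostate line the gland lumen and release their products into the fluid that joins the semen. Many of these products are made in large amounts under the control of androgen, and several differ between the lobes of the mouse gland. Basal cells lie beneath the luminal layer and do not face the lumen. Peptidases anchored in the apical membrane cut peptides in the fluid.

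The promoter windows of 4 of the genes are shown because they span the range of patterns described below. Pbsn and Tgm4 vary most between mice outside the luminal gate, Azgp1 varies little there, and Gdpd1 has the smallest p for LY6D. The windows are from RefSeq (GRCm38.p6), run 5′ to 3′ on the gene's strand, and cover 250 bases before to 50 bases after the annotated start. Capitals mark matches to the steroid hormone response hexamer (TGTTCT, or AGAACA on the other strand) and to the TATA box letters TATAAA on the gene's strand.
Pbsn, chrX:77853451-77853750, minus strand: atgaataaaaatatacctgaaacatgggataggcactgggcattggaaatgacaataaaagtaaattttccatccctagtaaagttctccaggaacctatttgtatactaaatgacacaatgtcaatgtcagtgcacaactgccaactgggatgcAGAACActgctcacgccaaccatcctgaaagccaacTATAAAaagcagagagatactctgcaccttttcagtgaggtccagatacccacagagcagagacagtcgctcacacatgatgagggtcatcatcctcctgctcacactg
Tgm4, chr9:123034491-123034790, plus strand: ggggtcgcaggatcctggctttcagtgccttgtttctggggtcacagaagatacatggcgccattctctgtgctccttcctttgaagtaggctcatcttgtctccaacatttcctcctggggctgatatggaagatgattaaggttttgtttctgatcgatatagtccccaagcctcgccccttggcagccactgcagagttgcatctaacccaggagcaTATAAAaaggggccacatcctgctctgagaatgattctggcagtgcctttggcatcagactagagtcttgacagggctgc
Azgp1, chr5:137981271-137981570, plus strand: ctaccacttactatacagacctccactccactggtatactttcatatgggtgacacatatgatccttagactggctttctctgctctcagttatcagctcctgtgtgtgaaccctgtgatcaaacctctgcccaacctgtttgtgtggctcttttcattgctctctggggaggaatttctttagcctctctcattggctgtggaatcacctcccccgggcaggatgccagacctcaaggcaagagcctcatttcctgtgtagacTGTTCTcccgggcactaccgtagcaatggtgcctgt
Gdpd1, chr11:87074088-87074387, minus strand: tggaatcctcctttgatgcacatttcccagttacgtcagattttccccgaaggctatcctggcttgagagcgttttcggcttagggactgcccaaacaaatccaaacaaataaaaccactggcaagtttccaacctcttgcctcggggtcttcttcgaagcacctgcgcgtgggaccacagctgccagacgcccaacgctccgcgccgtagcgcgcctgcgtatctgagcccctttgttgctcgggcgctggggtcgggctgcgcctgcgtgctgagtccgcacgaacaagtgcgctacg

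In the Pbsn window a hexamer stood at -95 to -90 and TATAAA at -59 to -54 relative to the start. Tgm4 had TATAAA at -30 to -25 and no hexamer, Azgp1 had a hexamer at 15 to 20, and Gdpd1 had neither. The table held windows for 7 of the 9 genes, 9 windows in all because Mme has 3. Hexamers were in 3 of these 9 windows (Pbsn, Azgp1 and Dpp4), against 19.0% of 32851 windows of all genes, and TATAAA was in 3 (Pbsn, Tgm4 and Dpp4), against 8.32%. The FOXA core letters TGTTTAC, searched on both strands, were in 0 of the 9 windows and in 3.65% of all windows. The letters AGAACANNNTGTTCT, in which a hexamer stands on each strand as in a full androgen response element, was in 0 of the 9 and in 3 of all windows. Such matches describe letters in a short window and say nothing about binding, and no match was drawn on for the results below. Apof and Msmb have no sequence shown.

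Before the values of the genes, 3 features of the libraries bear on them. The LY6D division was not mirrored by Ly6d transcript, which was higher in the LY6D+ library in 3 of 6 mouse pairs, and in the Sca1-high cells of mouse 5 stood at 4.70 in the LY6D+ and 7.37 in the LY6D- library. Ly6d was also lower in the LY6D+ library of luminal mouse 4 (4.81 against 5.11) and of basal mouse 5 (5.96 against 6.03). The labels were kept as given, and whether any of these libraries carry the right ones was not tested. An exchange of the Sca1-high libraries of mouse 5 would turn the sign of every LY6D difference of that mouse in that gate. The Sca1-high LY6D+ library of mouse 5 correlated least with the others (median r of 0.807), and 3 other libraries of mouse 5 (luminal LY6D-, basal LY6D+ and basal LY6D-) had fewer genes over the filter's signal level than any others. Among markers of the gates, Itga6, which encodes CD49f, had means of 6.49 ± 0.48 in luminal, 6.98 ± 0.76 in Sca1-high and 8.47 ± 0.80 in basal libraries (SD, n = 4 each). The 8 luminal epithelial markers, among them Krt8 and Krt18, did not separate the luminal from the basal gate (median luminal minus basal difference of -0.07).

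All 9 genes had their highest signal in the luminal gate. For each of the 9, every one of the 4 luminal libraries lay above every one of the 8 Sca1-high and basal libraries, a pattern met by 184 genes, or 0.914% of the 20135 tested. Luminal libraries that were all above the basal ones were found for 3.17% of genes, and all above the Sca1-high ones for 2.48%. Because the genes were chosen with this pattern known, nothing is read from these counts. In RNA of a sorted population, fewer cells of a type and less RNA per cell cannot be told apart.

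Pbsn encodes probasin, a lipocalin secreted by the rodent prostate. Its signal was 12.99 and 12.79 in luminal LY6D+ and 13.08 and 13.14 in luminal LY6D- cells. In Sca1-high cells it was 11.64 and 10.77 (LY6D+) and 12.53 and 10.19 (LY6D-), and in basal cells 9.10 and 11.48 (LY6D+) and 6.94 and 10.84 (LY6D-). The luminal libraries were thus within 0.35 of each other while the basal libraries spread over 4.54, and no basal library was as high as a luminal one. The gate means were 13 ± 0.15 in luminal, 11.28 ± 1.02 in Sca1-high and 9.59 ± 2.03 in basal libraries. The luminal signal was higher by 1.72 ± 0.87 than in Sca1-high cells (3.29-fold) and by 3.41 ± 0.87 than in basal cells (10.7-fold).

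Msmb encodes beta-microseminoprotein, a small protein abundant in prostatic fluid. It was at 11.88 and 11.80 in luminal LY6D+ and at 10.85 and 12.13 in luminal LY6D- cells. The Sca1-high values were 9.47 and 7.21 (LY6D+) and 10.56 and 9.08 (LY6D-), and the basal values 4.49 and 9.23 (LY6D+) and 8.30 and 8.11 (LY6D-). One basal library, LY6D+ of mouse 3, was far below the other 3, and the Sca1-high LY6D- library of mouse 1 came within 0.29 of the lowest luminal library. The luminal mean of 11.66 ± 0.56 was 4.13 ± 0.93 above the basal mean of 7.53 ± 2.09 (17.5-fold) and 2.58 ± 0.93 above the Sca1-high mean of 9.08 ± 1.40 (6.0-fold).

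Tgm4 encodes the prostate transglutaminase, which in mice cross-links seminal vesicle proteins into the copulatory plug. Its values were 11.49 and 11.80 in luminal LY6D+ and 11.46 and 12.37 in luminal LY6D- cells. In Sca1-high cells they were 8.99 and 6.62 (LY6D+) and 11.28 and 6.19 (LY6D-), and in basal cells 8.59 and 9.70 (LY6D+) and 5.91 and 9.12 (LY6D-). The Sca1-high LY6D- library of mouse 1 was close to the luminal libraries, whereas both Sca1-high libraries of mouse 5 were among the 3 lowest of all. The luminal gate (mean 11.78 ± 0.42) was 3.51 ± 1.10 above the Sca1-high gate (8.27 ± 2.35) and 3.45 ± 1.10 above the basal gate (8.33 ± 1.68), and those 2 gates overlapped.

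Azgp1 encodes zinc-alpha-2-glycoprotein, a secreted protein with the fold of MHC class I found in seminal fluid. It was at 7.46 and 8.40 in luminal LY6D+ and 7.71 and 8.52 in luminal LY6D- cells. It was at 5.19 and 5.18 in Sca1-high LY6D+, 4.72 and 4.40 in Sca1-high LY6D-, 4.18 and 5.39 in basal LY6D+ and 4.64 and 4.58 in basal LY6D- cells. In contrast to Pbsn, Msmb and Tgm4, its Sca1-high and basal libraries formed 1 narrow band between 4.18 and 5.39. The luminal mean of 8.02 ± 0.52 was 3.15 ± 0.32 above the Sca1-high mean of 4.87 ± 0.39 (8.88-fold) and 3.32 ± 0.32 above the basal mean of 4.70 ± 0.50 (10.0-fold).

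Rnase1 encodes a secreted ribonuclease of the pancreatic type. Its luminal signals were 9.32 and 10.85 in LY6D+ and 10.31 and 10.29 in LY6D- cells. Its Sca1-high signals were 7.36 and 5.44 in LY6D+ and 7.61 and 5.03 in LY6D- cells, and its basal signals 5.05 and 6.06 in LY6D+ and 4.77 and 5.73 in LY6D- cells. Both Sca1-high libraries of mouse 1 were higher than every basal library, and both of mouse 5 were within the basal range. Its luminal minus basal difference, 4.79 ± 0.64 (27.6-fold), was the largest of the 9, and its luminal minus Sca1-high difference was 3.83 ± 0.64 (14.2-fold).

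Apof encodes apolipoprotein F, a secreted inhibitor of lipid transfer between lipoproteins. It had luminal values of 7.13 and 7.69 (LY6D+) and 6.82 and 7.03 (LY6D-). Its Sca1-high values were 5.17 and 4.21 (LY6D+) and 5.77 and 4.52 (LY6D-), and its basal values 3.60 and 5.84 (LY6D+) and 3.52 and 4.07 (LY6D-). The basal LY6D+ library of mouse 5 stood above all Sca1-high libraries, and the other 3 basal libraries stood below all of them. The luminal mean of 7.17 ± 0.37 was 2.25 ± 0.49 above the Sca1-high mean (4.92 ± 0.69) and 2.91 ± 0.49 above the basal mean (4.26 ± 1.09).

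Mme encodes neprilysin, a membrane metallopeptidase that cuts small peptides outside the cell. Its values were 8.52 and 10.17 in luminal LY6D+ and 8.17 and 9.44 in luminal LY6D- cells. They were 4.74 and 5.47 in Sca1-high LY6D+, 6.10 and 6.43 in Sca1-high LY6D-, 5.57 and 6.43 in basal LY6D+ and 5.07 and 6.70 in basal LY6D- cells. In each of the 6 groups mouse 5 had the higher Mme value. The luminal mean of 9.08 ± 0.91 was 3.39 ± 0.50 above the Sca1-high mean (10.5-fold) and 3.13 ± 0.50 above the basal mean (8.78-fold).

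Dpp4 encodes a membrane dipeptidyl peptidase, also known as CD26. It was at 6.16 and 5.40 in luminal LY6D+ and 4.66 and 6.16 in luminal LY6D- cells. The other gates had 3.49 and 3.82 (Sca1-high LY6D+), 4.39 and 4.06 (Sca1-high LY6D-), 3.47 and 3.53 (basal LY6D+) and 2.99 and 3.51 (basal LY6D-). Dpp4 was dim: only 6 of the 12 libraries were above the median of the whole table, and the lowest luminal library was 0.27 above the highest Sca1-high one. The luminal mean of 5.59 ± 0.72 was 1.65 ± 0.33 above the Sca1-high mean of 3.94 ± 0.38 and 2.22 ± 0.33 above the basal mean of 3.38 ± 0.26.

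Gdpd1 encodes a glycerophosphodiester phosphodiesterase that releases lysophosphatidic acid from lysophospholipids. It was at 4.52 and 5.29 in luminal LY6D+ cells and at 7.41 and 6.99 in luminal LY6D- cells. In Sca1-high cells it was at 4.49 and 4.15 (LY6D+) and 4.13 and 4.28 (LY6D-), and in basal cells at 4.25 and 3.93 (LY6D+) and 4.43 and 4.17 (LY6D-). All 8 libraries outside the luminal gate lay between 3.93 and 4.49, and the luminal LY6D+ library of mouse 4, at 4.52, was just above them. The luminal mean of 6.05 ± 1.37 was 1.79 ± 0.23 above the Sca1-high mean and 1.86 ± 0.23 above the basal mean, with the luminal LY6D- cells far above the LY6D+ cells.

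**Figure D1:**
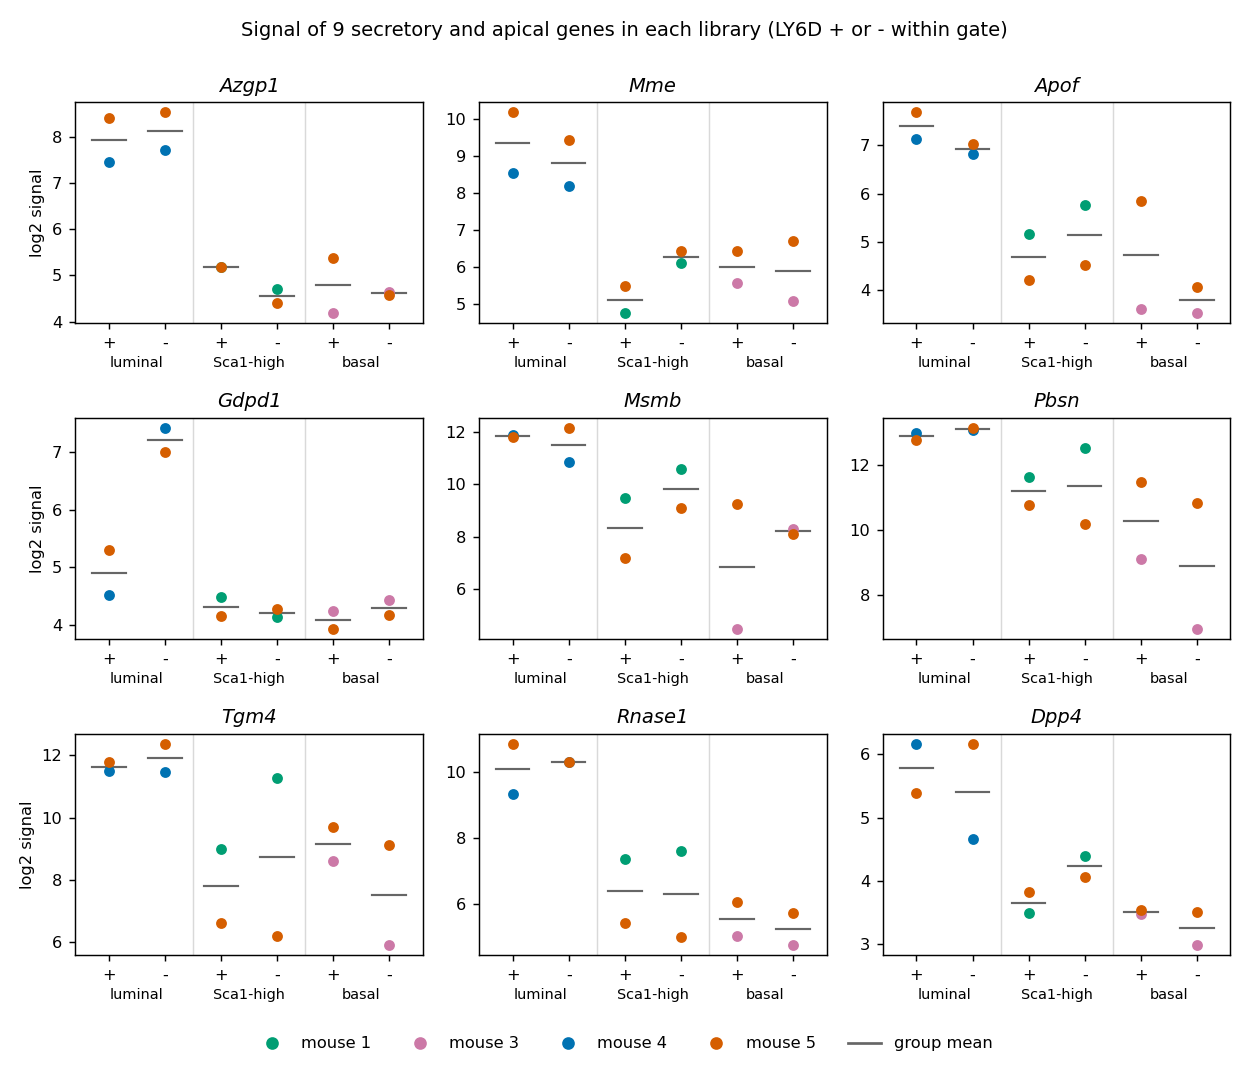
Log2 signal of each of the 9 genes (y axis) in every library, with 1 panel per gene and the groups on the x axis as LY6D + or - within the luminal, Sca1-high and basal gates. Points are libraries coloured by mouse and grey lines are group means (n = 2). In each panel the 4 luminal points lie above the 8 others, and Gdpd1 has its LY6D+ luminal points (4.52 and 5.29) close to the other gates.

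Over the 9 genes the median luminal minus basal difference was 3.32, against 0.03 over all genes tested, and the median luminal minus Sca1-high difference was 2.58, against -0.07. The gate comparisons chose the genes, so the number passing in limma's fit over all genes describes that choice and supports nothing. An adjusted p of 0.05 was passed by 6 of the 9 (Azgp1, Mme, Apof, Gdpd1, Rnase1 and Dpp4) in the luminal against basal comparison, where 0.278% of genes passed with luminal higher. For luminal against Sca1-high, 3 of the 9 (Azgp1, Mme and Gdpd1) passed, with 0.0993% of genes passing in that direction and 0.139% in either. Pbsn, Msmb and Tgm4 passed in neither, and they were the 3 genes with the largest SE (0.87 to 1.10). Without those 3 libraries of mouse 5, 0 of the 9 and 0 of all genes passed in either comparison, while the 9 luminal minus basal differences were between 1.82 (Gdpd1) and 5.29 (Rnase1). Without the Sca1-high LY6D+ library of mouse 5, the luminal minus Sca1-high differences were between 1.50 (Pbsn) and 3.58 (Mme). Mouse 5 alone gave libraries of every group, and its luminal minus basal differences were between 1.81 (Pbsn) and 4.67 (Rnase1). Its luminal minus Sca1-high differences were between 1.84 (Dpp4) and 5.68 (Tgm4). Their sign was fixed by the pattern over the 12 libraries given above, so only their size is described.

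**Figure D2:**
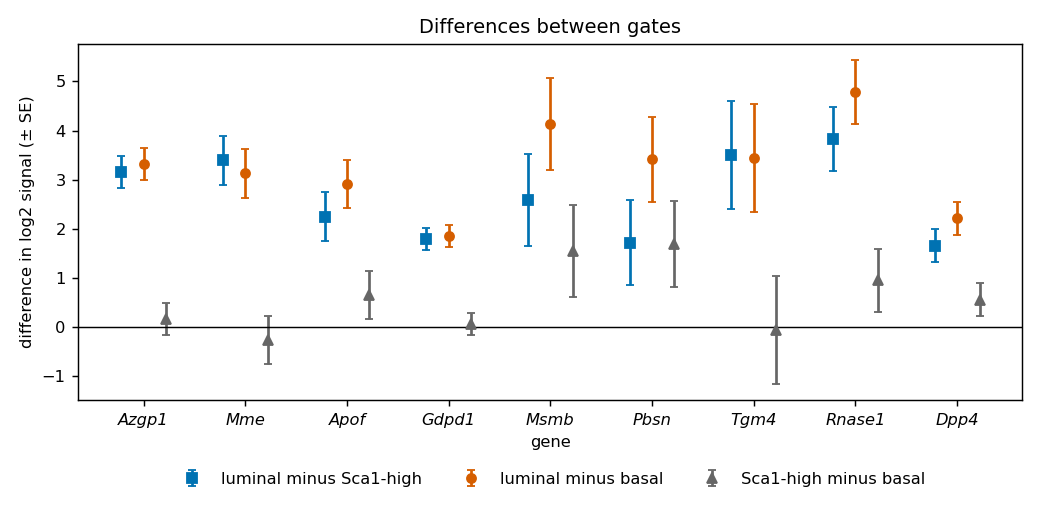
Difference in log2 signal between gates (y axis, mean of 4 libraries minus mean of 4 libraries, bars ± SE from limma) for each of the 9 genes on the x axis. Squares are luminal minus Sca1-high, circles luminal minus basal and triangles Sca1-high minus basal. The squares and circles lie between 1.65 and 4.79, and the triangles between -0.26 and 1.70.

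The Sca1-high and basal gates overlapped for all 9 genes. Every Sca1-high library above every basal one was found for 0 of the 9 and for 4.77% of all genes. Nothing is read from a count this near the share of all genes, and the share with the opposite order is not given. In the limma test for that comparison 0 of the 9 passed (0.00993% of genes passed in either direction). At an unadjusted p of 0.05 that comparison held 9.83% of all genes. The Sca1-high minus basal differences were 1.70 ± 0.87 for Pbsn, 1.55 ± 0.93 for Msmb, 0.96 ± 0.64 for Rnase1 and 0.66 ± 0.49 for Apof. They were under 0.60 in size for the other 5 genes, and negative for Mme (-0.26 ± 0.50) and Tgm4 (-0.06 ± 1.10).

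The order of these 2 gates differed with the mice that gave the libraries. Between the Sca1-high libraries of mouse 1 and the basal libraries of mouse 3, 8 of the 9 genes were higher in Sca1-high cells, with differences of 4.07 for Pbsn, 3.62 for Msmb, 2.88 for Tgm4 and 2.57 for Rnase1. Within mouse 5, 2 of the 9 were higher in Sca1-high cells (Dpp4 by 0.42 and Gdpd1 by 0.17), and Tgm4 had a difference of -3.00. The median over the 9 genes was 1.91 between mice 1 and 3 and -0.59 within mouse 5, against 0.06 and 0.17 over all genes. Of 20135 genes tested, 11494 were higher in Sca1-high cells between mice 1 and 3, and 12762 within mouse 5. Between mice 1 and 3, gate and mouse cannot be told apart, since each gate came from a different mouse. The difference between these 2 sets of mice was not tested, since each holds 1 mouse per gate. Seminal vesicle secretory genes, which serve as markers of another gland, had the same signs: 7 of 7 were higher in Sca1-high cells between mice 1 and 3 (median 2.97) and 1 of 7 within mouse 5 (median -0.97). The part of that gland's products in the values of the 9 genes was not tested.

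**Figure D3:**
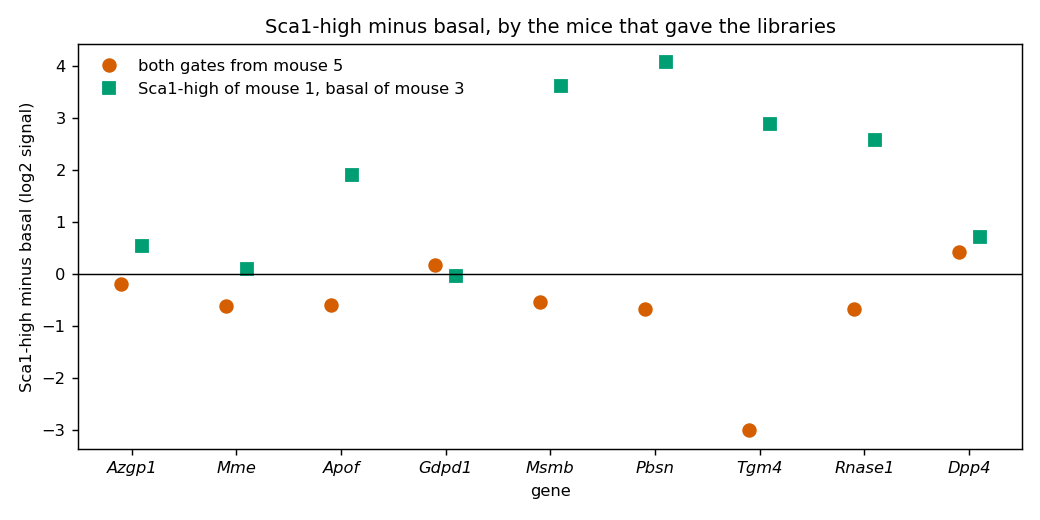
Sca1-high minus basal difference in log2 signal (y axis) for each of the 9 genes on the x axis, each point the mean of 2 libraries minus the mean of 2 libraries. Circles compare the gates within mouse 5 and squares compare mouse 1 (Sca1-high) with mouse 3 (basal). Pbsn, Msmb, Tgm4, Rnase1 and Apof have squares between 1.91 and 4.07 and circles below 0.

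Mice also differed within each gate. In the luminal gate 8 of 9 genes were higher in mouse 5 than in mouse 4 (median 0.60, against -0.10 over all genes), and 3 did not overlap, where 12.8% of all genes were higher in mouse 5 without overlap. In the Sca1-high gate 1 of 9 was higher in mouse 5 than in mouse 1 (median -1.10), and 5 were lower without overlap, against 21.3% of all genes. Tgm4 had the largest of these differences, -3.73. In the basal gate 8 of 9 were higher in mouse 5 than in mouse 3 (median 1.25), 6 of them without overlap, against 17.7% of all genes, and the largest difference was that of Pbsn, 3.14. With 2 libraries per mouse and gate these are differences between single mice, and the LY6D classes are mixed in them.

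The LY6D classes were tested in limma's fit over all 20135 genes. Levels in these classes were also known when the genes were chosen, so a small p of one of them is no independent evidence. None of the 9 passed an adjusted p of 0.05 over all gates, within a gate, or in the difference of the LY6D effect between gates. The share of all genes passing was 0.00993% in the basal gate and 0.0% in each of the other 6 comparisons. At an unadjusted p of 0.05, 1 of the 9 (Gdpd1) passed in the luminal gate, over all gates, and in the luminal minus Sca1-high and luminal minus basal differences of the effect, and 0 passed in the other 3 comparisons. The shares of all genes at that unadjusted p were 3.56% in the luminal gate, 2.62% over all gates, and 2.92% and 2.45% in those 2 differences. They were 2.41% in the Sca1-high gate, 2.2% in the basal gate and 2.36% in the Sca1-high minus basal difference.

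In luminal cells the LY6D+ minus LY6D- difference of Gdpd1 was -2.29 ± 0.32 (95% interval -3.01 to -1.57), with an unadjusted p of 4.45e-05, the 3rd smallest of the 20135 genes, and an adjusted p of 0.244 in limma's fit. This SE and p rest on 1 spread over all 6 groups, not on the luminal spread alone. The SD of Gdpd1 was 0.54 in luminal LY6D+ and 0.30 in luminal LY6D- libraries, and 0.11 to 0.24 in the Sca1-high and basal groups. Both mice had the lower value in LY6D+ cells, with differences of -2.89 in mouse 4 and -1.70 in mouse 5. In mouse 4 the Ly6d transcript did not follow these labels, as given above. Lower values in both LY6D+ libraries without overlap were found for 12.5% of all genes. The adjusted p ran between 0.0941 and 1.00 over the alternative settings, and was 0.727 with mouse as a fixed block and 0.150 with mouse as a random block.

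Over all gates the LY6D+ minus LY6D- difference of Gdpd1 was -0.80 ± 0.18, negative in 5 of 6 mouse pairs (unadjusted p of 0.00182, adjusted p of 1.00 in limma's fit). In the other gates the Gdpd1 difference was 0.11 ± 0.32 (Sca1-high, interval -0.61 to 0.83) and -0.21 ± 0.32 (basal, interval -0.93 to 0.51). The LY6D difference in luminal cells minus that in Sca1-high cells was -2.40 ± 0.45 (unadjusted p of 4.32e-04, adjusted p of 1.00 in limma's fit) and minus that in basal cells -2.08 ± 0.45 (unadjusted p of 0.00116, adjusted p of 0.999). Of 10 listed markers of basal epithelial cells, 8 were tested in the same luminal comparison and 0 passed, while 7 of 8 had higher values in LY6D+ cells (median difference of 0.65, against 0.02 over all genes). Their mean signal was 6.68 to 6.74 in luminal LY6D+ and 5.24 to 5.66 in luminal LY6D- libraries. Krt14, a basal keratin of this list, was at 9.87 and 10.31 in luminal LY6D+ and at 4.98 and 6.99 in luminal LY6D- cells. It was picked after its values were seen. Its difference was far above the list's median of 0.65, so it weighs on the mean signals of the list. Krt5 had no probe set of a single symbol. The part of these markers' cells in the Gdpd1 difference was not tested. Of the other 8 genes, 0 had an unadjusted p under 0.05 in the luminal gate, and their differences there ran between -0.27 (Tgm4) and 0.55 (Mme).

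For 5 of the 9 genes (Azgp1, Mme, Apof, Pbsn and Dpp4) the LY6D difference had 1 sign in both mice of a gate and the opposite sign in both mice of another, as it had for 25.5% of all genes. For 4 of the 5, all but Pbsn, one of the gates was the Sca1-high gate, where the sign in mouse 5 rests on the labels doubted above. Mme was higher in luminal LY6D+ cells in mouse 4 (0.36) and mouse 5 (0.74), and lower in Sca1-high LY6D+ cells in mouse 1 (-1.36) and mouse 5 (-0.96). The fitted differences were 0.55 ± 0.70 (interval -1.04 to 2.13) in the luminal and -1.16 ± 0.70 (interval -2.75 to 0.43) in the Sca1-high gate, and neither passed the test.

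For the abundant secreted products the intervals were wide, so that sizeable differences cannot be told from 0 in this fit. It gives each gene 1 spread over all 6 groups, so the luminal intervals also carry the scatter of the other gates. For Pbsn the SD was 0.14 in luminal LY6D+ and 0.05 in luminal LY6D- libraries, against 1.69 and 2.76 in basal ones (n = 2 each). The luminal LY6D difference was -0.22 for Pbsn (interval -2.98 to 2.55), -0.27 for Tgm4 (interval -3.77 to 3.23) and 0.35 for Msmb (interval -2.62 to 3.33). In the basal gate the mouse pairs differed: the LY6D+ minus LY6D- difference was 2.69 for Tgm4, 2.16 for Pbsn and -3.82 for Msmb in mouse 3, and 0.59, 0.64 and 1.12 in mouse 5. Over the 6 mouse pairs the LY6D+ library was higher in 4 pairs for Apof, Tgm4 and Rnase1, in 3 for Azgp1, Mme, Pbsn and Dpp4, in 2 for Msmb and in 1 for Gdpd1.

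**Figure D4:**
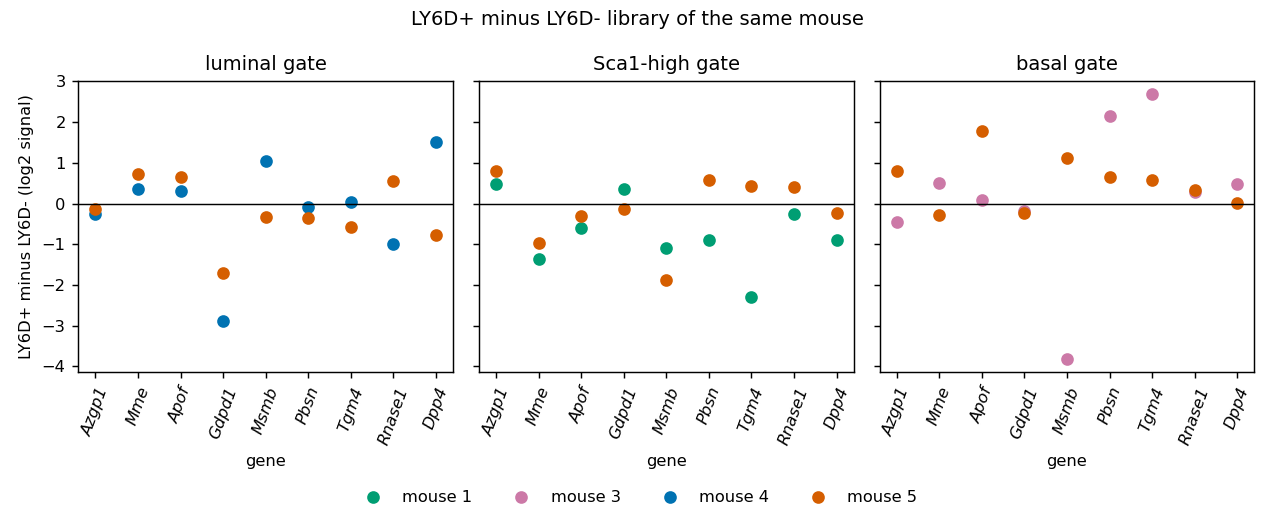
LY6D+ minus LY6D- difference in log2 signal between 2 libraries of the same mouse and gate (y axis) for each of the 9 genes on the x axis, with 1 panel per gate and points coloured by mouse. Gdpd1 has both luminal points below -1.5 (-2.89 and -1.70), and Msmb has the largest difference, -3.82 in basal cells of mouse 3.

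How far the 9 genes varied together depended on whether the luminal libraries were included. Over all 12 libraries, which include the gate pattern the genes were chosen for, Pearson's r between pairs of the 9 ran between 0.50 (Gdpd1 with Pbsn) and 0.94 (Apof with Rnase1), with a median of 0.78 over 36 pairs. Over the 8 Sca1-high and basal libraries it ran between -0.73 (Mme with Gdpd1) and 0.83 (Apof with Pbsn), with a median of 0.40. These are descriptions over libraries that share mice.

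Outside the 9, the tested genes whose pattern over the 12 libraries was most like the mean of the 9 were Cdcp3 (r of 0.97), Gla (0.97), Slamf7 (0.96), Dnajc10 (0.96) and Tspan1 (0.95). Dnajc10, which encodes a disulfide reductase of the endoplasmic reticulum, had means of 9.37 ± 0.47 in luminal, 6.19 ± 0.85 in Sca1-high and 6.13 ± 0.80 in basal libraries. Slamf7, a receptor known from immune cells, had means of 8.96 ± 0.85, 6.10 ± 1.14 and 5.28 ± 0.62 in luminal, Sca1-high and basal libraries. For single genes the closest were Atp6v1c2 for Azgp1 (0.97), Glb1l3 for Mme (0.95), Ceacam2 for Apof (0.93), Creg1 for Gdpd1 (0.96) and Sbp for Msmb (0.95). For the remaining 4 they were Serpina3n for Pbsn (0.93), Ctsz for Tgm4 (0.95), H2-Ab1 for Rnase1 (0.96) and Bcl2l14 for Dpp4 (0.96). Like Gdpd1, Creg1 had a wide luminal range (4.10 to 7.98) and a narrow one of 3.46 to 4.06 in the other gates.

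Other secreted products of the prostate were followed in a list of 20 genes, of which 18 were tested. In the luminal against basal comparison 14 of 18 were higher in luminal cells (median 0.95, against 0.03 over all genes). The test was passed by 1 of 18, and by 0.278% of all genes with luminal higher. This was Cdcp3, at 10.01 ± 0.46 in luminal and 5.45 ± 1.06 in basal cells (difference of 4.56 ± 0.55, adjusted p of 0.0182 in limma's fit). The list was chosen with earlier results of these data known, so that p is no independent evidence, and the fit ignores that libraries share mice. In the luminal against Sca1-high comparison 12 of 18 were higher (median 1.09, against -0.07) and 0 passed. Sbp, a spermine-binding protein of prostatic secretion, was at 9.13 ± 0.19 in luminal, 7.64 ± 1.40 in Sca1-high and 6.62 ± 1.79 in basal libraries. Psca, by contrast, had means of 3.89 ± 0.15 in luminal, 7.15 ± 3.03 in Sca1-high and 5.03 ± 1.36 in basal libraries, with 11.21 in the Sca1-high LY6D+ library of mouse 1.

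Other apical ectoenzymes were followed as well. Of 12 listed, 9 were tested, 4 were higher in luminal than in basal cells (median -0.03) and 0 passed in any gate comparison. The largest differences were those of Ace, the angiotensin-converting enzyme (7.30 ± 1.42 in luminal and 4.87 ± 0.75 in basal cells, difference of 2.43 ± 0.63, adjusted p of 0.196 in limma's fit), and Tmprss2, a membrane serine protease (1.37 ± 0.31, adjusted p of 0.131 in limma's fit). Of 29 family relatives of the 9 genes, 25 were tested, 13 were higher in luminal than in basal cells (median 0.03) and 0 passed. These relatives were also dim on average, at 4.49 in luminal, 4.58 in Sca1-high and 4.54 in basal libraries. Among them the transglutaminase Tgm1 had means of 5.31 ± 0.49 in Sca1-high and 7.43 ± 1.61 in basal cells (difference of -2.11 ± 0.68, adjusted p of 0.390 in limma's fit), and the phosphodiesterase Gdpd3 a Sca1-high minus basal difference of 1.69 ± 0.62 (adjusted p of 0.457). Of 18 genes linked to androgen signalling, 15 were tested, 8 were higher in luminal than in basal cells (median 0.01) and 0 passed. The largest differences were a luminal minus basal difference of -1.75 ± 0.55 for Ndrg1 and a Sca1-high minus basal difference of -1.61 ± 0.48 for the pioneer factor Foxa1 (adjusted p of 0.299 and 0.367 in limma's fit). At an unadjusted p of 0.05 the luminal against basal and luminal against Sca1-high comparisons held 9.44% and 8.41% of all genes.

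Levels of markers of other cell types also varied between the gates. The 12 myeloid markers averaged 6.70 to 8.03 in luminal, 4.66 to 6.44 in Sca1-high and 4.27 to 5.03 in basal libraries, and 12 of 12 were higher in luminal than in basal cells (median 2.63), 5 of them past the test. In that comparison 0.278% of all genes passed with luminal higher, and the marker lists too were chosen with earlier results known. The 7 seminal vesicle genes tested of 8 listed averaged 11.35 to 11.69 in luminal, 7.59 to 10.45 in Sca1-high and 6.40 to 10.76 in basal libraries. All 7 were higher in luminal than in basal cells (median 4.01), and 0 passed. Ptprc, which encodes the sort marker CD45, had means of 6.46 ± 2.02 in luminal, 4.20 ± 0.33 in Sca1-high and 3.42 ± 0.24 in basal libraries. The 12 endothelial markers averaged 4.27 to 4.67 in luminal, 5.44 to 6.74 in Sca1-high and 4.26 to 6.59 in basal libraries, and Pecam1, which encodes CD31, was at 5.18 ± 0.58, 8.43 ± 1.22 and 7.42 ± 1.30 in luminal, Sca1-high and basal libraries. The part of these cell types in the values of the 9 genes was not tested.

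**Figure D5:**
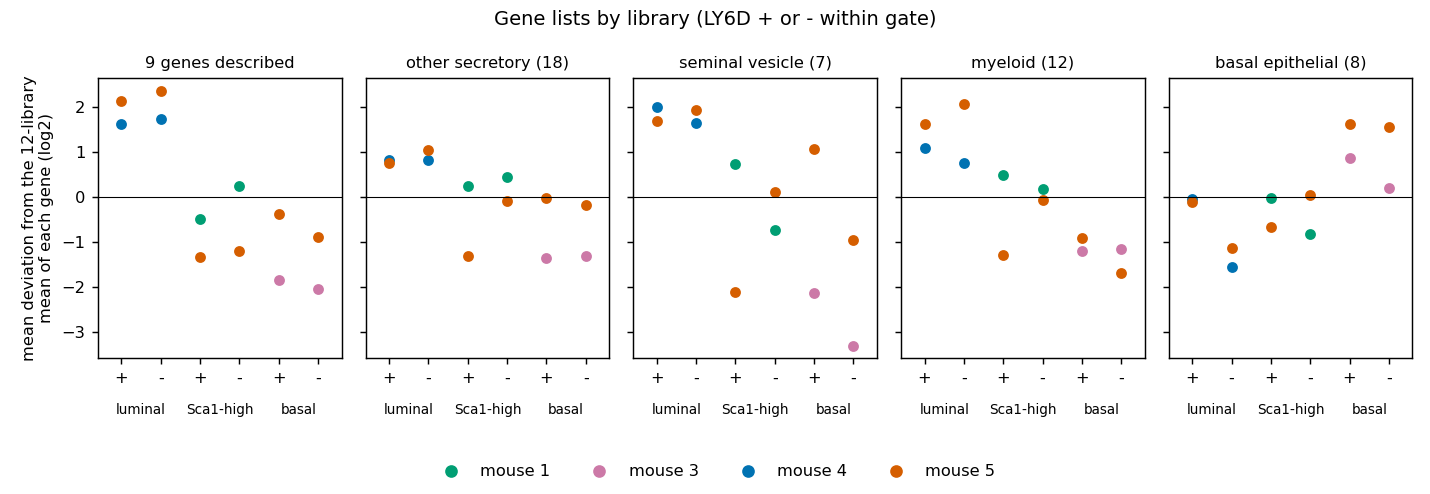
Mean deviation of the genes of a list from their 12-library means (y axis, log2) in each library, for the 9 genes described, 18 other secretory genes, 7 seminal vesicle genes, 12 myeloid markers and 8 basal epithelial markers, with LY6D + or - within gate on the x axis. Points are libraries coloured by mouse. The 9 genes, the other secretory genes, the seminal vesicle genes and the myeloid markers have their 4 luminal points above all others. Basal epithelial markers are higher in luminal LY6D+ than in luminal LY6D- cells.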

How the data were processed

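Per the labels' protocols, column-purified RNA of the sorted cells was put through the NuGEN Ovation V2 kit and read on 12 arrays. The authors deposited 1 log2 signal for each probe set and array. RMA and oligo are named in the submitters' processing notes, without version or parameters; the values were used without further normalization (none missing, array medians 3.76 to 3.99). Scanner files and detection calls were not used here. Of 41345 probe sets, 23521 had a single symbol in the platform annotation, 1814 several and 16010 none; the brightest was kept for the 1082 genes with several. Genes with at least 2 arrays above the lower quartile of the table (2.98) were tested, which left 20135.

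All comparisons came from 1 limma fit (version 3.58.1, R 4.3.3) to the means of the 6 groups over the 12 arrays, with eBayes moderation and p-values adjusted over all genes by Benjamini-Hochberg at 0.05. The fit was also run on simulated arrays with planted differences, independent noise and 1 spread per gene. That run does not bear on shared mice or on spreads that differ between groups. Each group holds 2 mice. The fit gives each gene 1 spread for all groups and ignores that groups share mice. The mouse number in the labels pairs LY6D+ and LY6D- libraries of a gate. Their deviations from the group means correlated at 0.0220 (luminal), 0.149 (Sca1-high) and 0.407 (basal). Mouse was a block in alternatives only. Other alternatives were centring of arrays on their medians, quantile normalization, another or no filter on dim probe sets, the mean of all probe sets of a gene, only the groups compared, and leaving out libraries.

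The members and gene lists were chosen with earlier results of these data known. The other genes named were the sort genes, up to 4 genes past the threshold per list or else the 2 with the largest difference, and the genes most correlated with the members. Krt14, Krt8, Krt18, Psca and Sbp as list members and the levels of Dnajc10, Slamf7 and Creg1 were chosen for display after their values were seen.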

Additional observations from a re-analysis of the deposited data

Results flagged for a closer look

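In 27 groups of 4 libraries (9 genes in 3 gates), 1 library stood apart from the other 3 by Dixon's criterion at its 95% level. For independent libraries chance meets this in about 1 in 20 groups. The 4 libraries of a gate share mice and hold both LY6D classes, so that rate need not hold here. Dpp4, the membrane dipeptidyl peptidase, was at 2.99 in the basal LY6D- library of mouse 3, below the other basal libraries at 3.47, 3.53 and 3.51. That value is close to the filter's signal level of 2.98.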

How the results depend on the processing

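The 9 luminal minus basal and the 9 luminal minus Sca1-high differences were positive under all 22 settings run, the main one included. Settings that leave out libraries or groups could not change these signs, since every luminal library lay above all others. The genes were also chosen with this pattern known, so nothing is read from the signs. How many of the 9 passed changed, and nothing is read from these counts either, since the gate comparisons chose the genes. For luminal against basal, 100 of all genes passed with mouse as a fixed block and 77 with only the groups compared. Other counts over all genes are given in the next paragraph. Against 6 in the luminal against basal comparison, 3 passed with arrays centred on their medians, with mouse as a fixed block (replicate block) and with only the groups compared, 0 without 3 libraries of mouse 5, and 1 to 5 when a single library was left out (5 without luminal LY6D- of mouse 4 or either Sca1-high LY6D+ library, 4 without luminal LY6D+ of mouse 4, and at most 3 without any one of the other 8). Against 3 in the luminal against Sca1-high comparison, 5 passed with mouse as a fixed block, 1 with only the groups compared, 0 without the 3 libraries, and 1 to 4 when a single library was left out (1 without any single library other than the luminal ones of mouse 4 and Sca1-high LY6D+ of mouse 1). In the Sca1-high against basal comparison and in the 7 LY6D comparisons 0 of the 9 passed in every setting.

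Over all genes, 84 passed for luminal against basal, 31 after centring, 0 without the 3 libraries and 15 to 255 with a library left out. For luminal against Sca1-high 28 passed, 17 after centring, 104 with mouse as a fixed block, 13 with only the groups compared, 0 without the 3 libraries and 13 to 165 with a library left out. For Sca1-high against basal 2 passed, 80 with the fixed block, 1 with mean probe sets or only the groups compared, and 2 to 133 with a library left out. In the basal gate 2 genes passed for LY6D and 0 with mean probe sets, the fixed block, quantile normalization, only the groups compared or without the 3 libraries. In the luminal gate 0 passed, 1 with mouse as a random block or without the 3 libraries. With a library left out, the counts ran from 0 to 3 (basal), 0 to 70 (luminal), 0 to 17 (Sca1-high) and 0 to 2 (all gates), and for the differences of the LY6D effect from 0 to 11 (luminal minus basal), 0 to 7 (luminal minus Sca1-high) and 0 to 14 (Sca1-high minus basal). The cause was not tested. Each group has 2 arrays, so leaving out any library leaves a group with 1 array, which is then assumed to vary like the others. Leaving out the 3 libraries leaves 3 such groups, and the basal gate then holds mouse 3 only. The setting with only the groups compared was not run for LY6D over all gates, where it equals the main one.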
